A study of Mus musculus with 16 samples.

Results

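The response of the uterus to estradiol was compared between wild-type (WT) mice and mice with the receptor form named Arg260-ERα. The quantity is the genotype difference of the response, (Arg260 E2 minus Arg260 PLB) minus (WT E2 minus WT PLB), called the interaction below. A value above 0 means that the change with E2 was more positive in Arg260. All 16 of the 16 samples of the series enter it, with groups taken from the sample titles, and it was fitted for 25862 genes. Each sample was RNA from uterus, after ovariectomy at an age of 4 weeks. The labels give 2 to 3 weeks without ovaries before a single injection under the skin of 17beta-estradiol (E2, 8 µg/kg) or of castor oil alone (PLB, 0 µg/kg), and uteri were taken 6 h later. Both genotypes received both treatments, which makes 4 groups (PLB or E2 in WT, PLB or E2 in Arg260) of 4 samples, each on an array of its own. Arg260 names an arginine of estrogen receptor alpha (ERα, the product of Esr1). The labels do not state how it was changed or whether it was changed in all tissues, and they do not say that the samples are separate animals, so that the p-values measure the spread between these samples, which may in part be technical.

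ERα is a ligand-activated transcription factor. In the nucleus it binds estrogen response elements, or reaches DNA through other factors such as AP-1, and in the uterus it switches on growth, water uptake, blood vessel and epithelial genes within hours. A fraction of the receptor sits at the cell membrane, where it binds G proteins, Src, caveolins and kinases and starts rapid signalling, best known for the activation of endothelial nitric oxide synthase. The interaction asks whether a gene's response to the hormone depended on the genotype.

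Levels are log2 signals minus each array's 75th percentile, so that 1 unit is a 2-fold change and 0 is that percentile. Levels of different genes come from different probes and are not compared. Between 61.6% and 70.6% of the spots of an array were well above background and 0 were saturated. Between replicates, the correlation over genes lay between 0.980 and 0.993. Principal component 1 (71.7% of the variance) separated the treatments. There were 3 arrays that stood apart. WT PLB replicate 2 lay at 68.82 and Arg260 PLB replicate 3 at -59.73 on component 2 (5.12%), where the other 14 arrays lay between -18.15 and 14.34, and WT E2 replicate 3 had a mean level of mitotic genes of -0.30 where the other WT E2 arrays had -2.59 to -2.35. Values without these 3 arrays, an alternative chosen after the data were seen, are given beside the main results that they moved. The 2 slides carried 8 arrays each, 2 from every group, so that each slide gives its own estimate of the interaction.

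No gene passed the test for a genotype difference of the E2 response (limma, adjusted p under 0.05; 0 of 25862 genes, 0% called). The smallest adjusted p was 0.615. At an unadjusted p under 0.05 there were 961 genes (3.72%), 688 of them (2.66% of all genes) with a more positive response in Arg260 and 273 (1.06%) with a more negative one. The percent of genes at unadjusted p under 0.05 that were higher in Arg260 depended on the scaling. It was 71.6 here, 61.9 after quantile normalisation, 61.4 after normexp and quantile normalisation and 56.6 in the deposited series table. Testing each of the 38683 probes on its own gave 0 called, 1421 at an unadjusted p under 0.05 and a smallest adjusted p of 0.664. Without the 3 arrays that stood apart, 0 genes were called and 1222 had an unadjusted p under 0.05, of which 57.0% were higher in Arg260.

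The response itself was large in both genotypes. E2 changed 16435 genes in WT (63.5%, adjusted p under 0.05 by limma) and 16629 in Arg260 (64.3%). The WT calls were 8245 rises (31.9%) and 8190 falls (31.7%), the Arg260 calls 8681 rises (33.6%) and 7948 falls (30.7%). The mean of both E2 effects, which does not use their difference, was called for 18850 genes (72.9%: 36.8% rises and 36.1% falls), and 7403 of these changed at least 2-fold on average. The choice of these 7403 by a large average effect itself favours a shared direction and calls in each genotype. Among the 7403, 7077 were called in each genotype and 7402 moved in the same direction in both. The exception was Ubd, a ubiquitin-like modifier known as an interferon target, whose E2 effect was -2.62 in WT and 0.30 in Arg260.

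**Figure D1:**
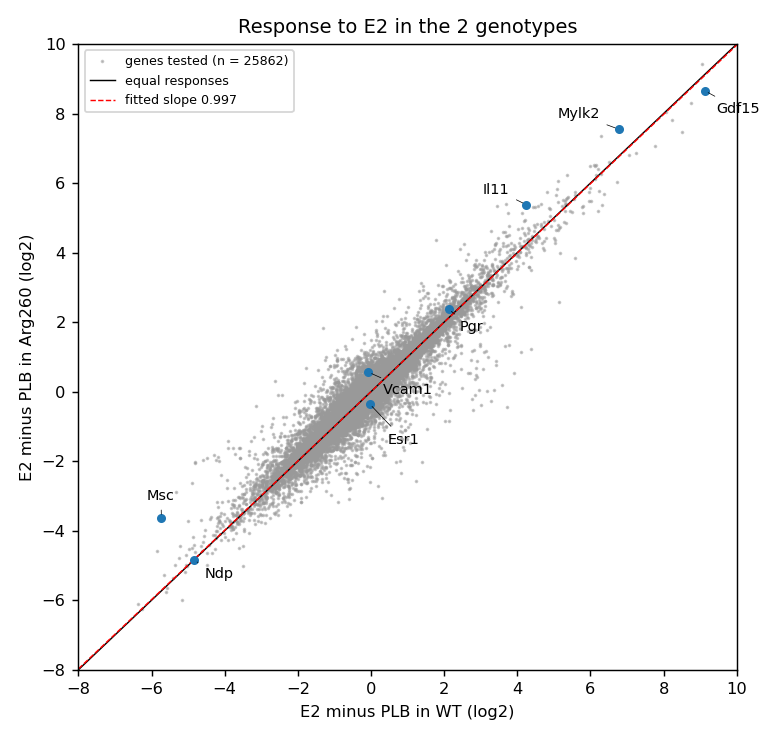
Log2 change with E2 (E2 minus PLB, means of 4 arrays per group) in WT on the x axis and in Arg260 on the y axis, 1 grey point per gene (25862 genes). The black line marks equal responses and the red dashed line the fitted slope of 0.997. Gdf15, Mylk2, Il11, Pgr, Vcam1, Esr1, Ndp and Msc are named, and the points lie along both lines.

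Across the 18850 genes called for the average effect, the slope of the Arg260 effect on the WT effect was 0.997 (jackknife SE over arrays 0.0319, 95% interval 0.928 to 1.07). An exact permutation test of the genotype labels within each treatment gave a two-sided p of 0.950 over 4900 assignments. Among the 3517 genes that rose at least 2-fold, the median effect was 1.50 in WT and 1.52 in Arg260, with a median interaction of 0.04 (jackknife SE 0.06). Among the 3886 that fell, the medians were -1.59 and -1.55, with a median interaction of 0.03 (jackknife SE 0.05). A slope of 1 would be a response of equal size, and the interval bounds how far the whole response of Arg260 could lie from it.

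A p that misses the threshold does not show equal responses, so the 95% intervals of single genes were read as well. The median interval extended 0.418 log2 units to either side, and for 19951 genes (77.1%) it lay within 1 unit of 0. Of the 7403 genes that changed at least 2-fold, 5668 (76.6%) had an interval that excluded a loss of 50% of the log2 response in Arg260, and 5689 (76.8%) one that excluded a gain of that size. Rises were bounded more tightly than falls: a loss of that size was excluded for 84.5% of the rises and 69.4% of the falls. The interval lay wholly beyond such a loss for 2 genes, both among the falls and named here after their values were seen. They were Ubd (interaction 2.92, 95% interval 0.84 to 5.0) and the predicted gene Gm10493 (2.73, 0.99 to 4.47).

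The interaction was also read by the size of the response. Among genes that rose by more than 3 log2 units on average (329 genes), the median interaction was 0.07 and 5.17% had an unadjusted p under 0.05. Among the 250 genes that fell by more than 3, the median was 0.08 and the share 5.60%. In the bins from 1 to 2 units, the shares were 3.00% for 2634 rises and 4.56% for 2874 falls, and from 2 to 3 units 3.62% for 607 rises and 6.14% for 847 falls. The highest share of these bins was that of the falls from 2 to 3 units.

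Across genes, the interaction of slide 1 correlated with that of slide 2 at -0.0265 (Pearson), whereas the E2 effect correlated at 0.903 in WT and 0.906 in Arg260. The points are genes measured on the same arrays, and no test is attached. The 100 genes with the smallest p for the interaction within slide 1 had a median size of 1.18 there and a median of -0.17 in the same direction on slide 2, where 42 of 100 kept their sign. Starting from slide 2, the sizes were 1.20 and -0.03, with 43 of 100. For the E2 effect in WT, the same reading gave 3.01 on slide 1 and 2.96 on slide 2, with 100 of 100. Without the 3 arrays that stood apart, the correlation of the interactions was 0.12.

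**Figure D2:**
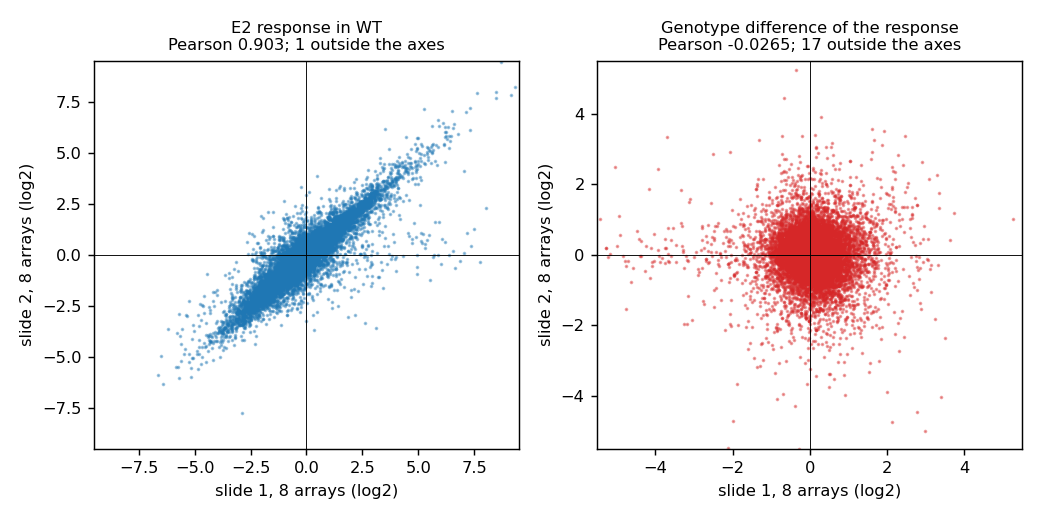
Each point is 1 gene, with its value from the 8 arrays of slide 1 on the x axis and from the 8 arrays of slide 2 on the y axis (log2 units), for the E2 response in WT (left, Pearson 0.903) and for the interaction (right, Pearson -0.0265). The responses line up along the diagonal and the interactions do not.

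The receptor's own transcript and its classic target come first. Esr1 was read by 4 probes. The brightest, which stands for the gene, gave 3.53, 3.59, 3.78 and 3.67 in WT PLB, 3.68, 3.63, 3.52 and 3.59 in WT E2, 3.83, 3.88, 3.57 and 3.87 in Arg260 PLB, and 3.29, 3.52, 3.62 and 3.31 in Arg260 E2. Levels in WT overlapped between treatments, and in Arg260 the treatments overlapped through Arg260 PLB replicate 3 alone. The interaction was -0.31 (SE 0.13, unadjusted p = 0.0347, adjusted p = 1 by limma), with -0.54 on slide 1 and -0.08 on slide 2. The other probes gave -0.34, 0.15 and 0.20, so that the sign depended on the probe. The probe with 0.15 (SE 0.12) reads coding sequence of the ligand-binding domain, at chr10:5489352-5489411 (mm9, minus strand). It is printed because it shows a part of the receptor message itself. Its estimate was on the other side of 0, but with an unadjusted p of 0.226 (limma) its sign is not settled.
Esr1 probe: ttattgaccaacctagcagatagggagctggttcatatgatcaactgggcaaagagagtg

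Pgr, the progesterone receptor and a direct ERα target, rose in both genotypes. WT PLB levels were 2.33, 2.03, 2.00 and 2.49, with 4.47, 4.25, 4.35 and 4.27 after E2. Arg260 PLB levels were 2.07, 2.35, 1.66 and 2.83, with 4.73, 4.69, 4.32 and 4.64 after E2. The treatments were fully apart in each genotype, and the genotypes overlapped within each treatment. The rise was 2.12 in WT and 2.37 in Arg260, an interaction of 0.25 (SE 0.28, 95% interval -0.35 to 0.85), and the other Pgr probes gave -0.08 and -0.04.

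The 20 genes with the smallest unadjusted p are given as a description, since none of them was called. Their choice by a small p on these same arrays favours a separation of the genotypes. The shares of all genes printed beside such separations, here and below, are therefore no support for them. Vcam1 and Il11 had the smallest p. Vcam1 encodes an adhesion molecule of activated endothelium and stroma that binds leukocyte integrins. Its levels were -0.29, -0.29, -0.27 and -0.31 in WT PLB and -0.36, -0.32, -0.33 and -0.43 in WT E2. In Arg260 they were -0.63, -0.62, -0.69 and -0.86 under PLB and -0.34, -0.07, -0.06 and -0.09 under E2. The Arg260 PLB arrays were the lowest of the 4 groups. All of them lay below all WT PLB arrays, as in 1.10% of all genes. With E2, 3 of the 4 Arg260 arrays lay above every other array. The E2 effect was -0.07 in WT and 0.56 in Arg260, an interaction of 0.62 (SE 0.11, unadjusted p = 3.78e-05, adjusted p = 0.615 by limma). A dimmer Vcam1 probe gave 0.40 (SE 0.24).

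Il11 encodes interleukin 11, a cytokine of the gp130 family that the decidualising endometrium needs. Levels were -3.75, -3.36, -4.10 and -3.62 in WT PLB, and -3.73, -4.01, -3.97 and -3.76 in Arg260 PLB. With E2 they were 0.66, 0.49, 0.69 and 0.30 in WT, against 1.54, 1.34, 1.54 and 1.63 in Arg260. The PLB arrays of the genotypes overlapped, and all 4 Arg260 E2 arrays lay above all 4 WT E2 arrays, as they did for 2.55% of all genes. The rise was 4.24 in WT (19.0-fold) and 5.38 in Arg260 (41.7-fold), an interaction of 1.14 (SE 0.20, unadjusted p = 4.75e-05, adjusted p = 0.615), with 1.18 on slide 1 and 1.10 on slide 2. Il11 sits on mouse chromosome 7, with its probe at chr7:4724847-4724906 (mm9).

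Gpsm2 had the smallest p among genes with a more negative response in Arg260. It encodes LGN, a partner of inhibitory G proteins that orients the mitotic spindle. Levels were 2.54, 2.37, 2.37 and 2.66 in WT PLB and 2.55, 2.43, 2.30 and 2.53 in Arg260 PLB, against 1.47, 1.80, 1.58 and 1.60 in WT E2 and 0.72, 0.92, 1.04 and 0.73 in Arg260 E2. The genotypes overlapped under PLB, and all Arg260 E2 arrays lay below all WT E2 arrays, which held for 1.40% of all genes. The E2 effect was -0.87 in WT and -1.60 in Arg260, and the interaction was -0.73 (SE 0.14, unadjusted p = 0.000167, adjusted p = 1).

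Pfkfb1, which makes and breaks the glycolytic regulator fructose 2,6-bisphosphate, had an E2 effect of -1.85 in WT and -0.88 in Arg260. Its levels were -1.20, -0.77, -1.02 and -1.08 in WT PLB, -3.06, -2.98, -2.40 and -3.04 in WT E2, -1.51, -1.29, -1.52 and -1.24 in Arg260 PLB, and -2.31, -2.30, -2.33 and -2.15 in Arg260 E2. All Arg260 PLB arrays were below all WT PLB arrays, a pattern of 1.10% of genes. With E2, all Arg260 arrays were above all WT arrays, a pattern of 2.55% of genes. The interaction was 0.97 (SE 0.20, unadjusted p = 0.000216), and without WT E2 replicate 3 it was 1.13 with an adjusted p of 0.0646, the smallest adjusted p of any gene under any alternative.

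A group of 3 further genes had a smaller E2 effect in Arg260. Fam170b, a gene known mainly from testis, rose by 1.80 in WT and 0.94 in Arg260 (interaction -0.86, SE 0.18, unadjusted p = 0.000311). Lhx3, a homeobox factor of pituitary and motor neuron development, rose by 1.77 and 0.92 (-0.85, SE 0.19). The interactions of Fam170b and Lhx3 were also nearly the same on slide 1 (-1.13 and -1.11) and on slide 2 (-0.59 and -0.59). Whether these 2 probes read separate messages was not tested. Nr6a1, the orphan receptor GCNF, rose by 1.05 in WT, and its E2 effect in Arg260 was 0.17 (-0.89, SE 0.23). In each of these genes every Arg260 E2 array was below every WT E2 array, as in 1.40% of all genes. Their choice by a small p favours such a separation. The PLB arrays of the genotypes overlapped.

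The other genes of the 20 follow. More positive responses in Arg260 were seen for Inf2, an actin-nucleating formin (0.55, SE 0.11), Mgst1, a microsomal glutathione transferase (0.60, SE 0.14), Grip2, a synaptic scaffold (0.69, SE 0.17), Syt13, a synaptotagmin (0.69, SE 0.18) and Inafm1, a small membrane protein (0.36, SE 0.09). The Mup2 probe (1.02, SE 0.23) belongs to a family of near-identical major urinary protein genes and cannot be assigned to 1 member with certainty. More negative ones were seen for Usp13, a deubiquitinase (-0.61, SE 0.15), and Galntl6, a glycosyltransferase relative (-1.11, SE 0.28). Dimmer probes gave 0.54 (SE 0.20) for Mgst1, 0.21 (SE 0.37) for Grip2 and -0.53 (SE 0.12) for Usp13. The Galntl6 probe was well above background on 3 WT PLB, 3 Arg260 PLB, 1 WT E2 and 0 Arg260 E2 arrays, so that its fall in Arg260 is known only as at least 1.77-fold. The last 5 genes, Mx2, Tapbpl, Parp10, Cmpk2 and Ifih1, are treated with the interferon genes below. The interaction of each of the 20 genes had the same sign on both slides, which their choice by a small p over both slides favours.

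**Figure D3:**
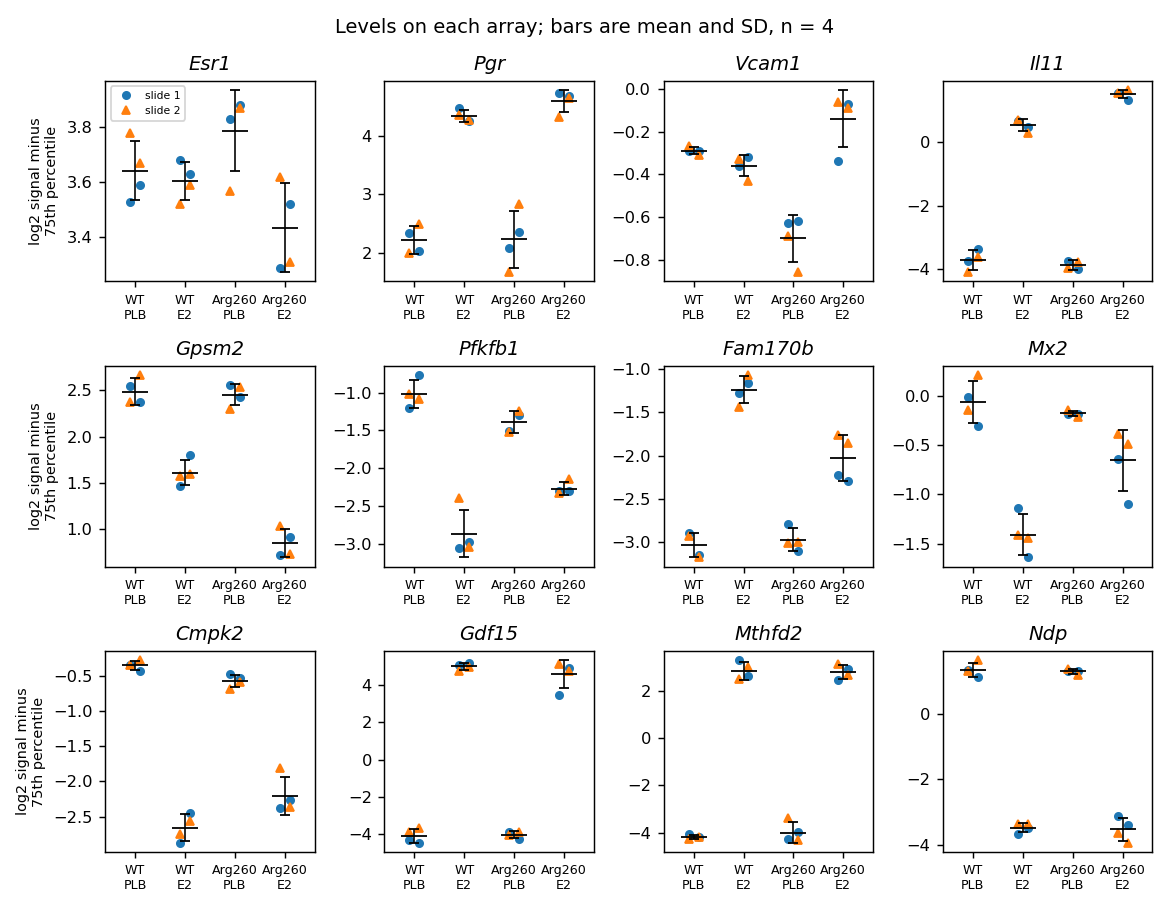
Levels (log2 signal minus the array's 75th percentile) on each of the 16 arrays for 12 genes, by group, with circles for slide 1 and triangles for slide 2 and bars for the mean and SD of 4 arrays; the y axes differ between genes. For Il11, Gpsm2 and Mx2, chosen by a small p that favours such a gap, the genotypes overlap under PLB and are apart under E2. For Gdf15, Mthfd2 and Ndp, chosen by their average response, they overlap under both.

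The strongest responders of the uterus, chosen by the average of both genotypes, come next. Gdf15, a stress cytokine, had the largest measured rise from a baseline above background. WT PLB levels were -4.36, -4.48, -3.90 and -3.69, and WT E2 levels 5.10, 5.21, 4.78 and 5.01. Arg260 PLB levels were -3.92, -4.27, -4.08 and -3.91, and Arg260 E2 levels 3.50, 4.95, 5.16 and 4.78. All E2 arrays were far above all PLB arrays, the genotypes overlapped in both treatments, and Arg260 E2 replicate 1 was the lowest of them. The rise was 9.13 in WT and 8.65 in Arg260, an interaction of -0.48 (SE 0.41, 95% interval -1.36 to 0.39).

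The intervals of most other strong risers spanned 0. Mthfd2, a mitochondrial enzyme of one-carbon metabolism, rose by 7.06 and 6.82 (interaction -0.24, 95% interval -0.90 to 0.41). Aqp8, a water channel, rose by 6.51 and 6.60 (0.09, -0.66 to 0.84), and a dimmer probe gave 0.64 (SE 0.37). Its Arg260 E2 arrays were all above its WT E2 arrays, as in 2.55% of all genes. Myh7, a slow myosin heavy chain, rose by 7.25 and 6.85 (-0.40, -1.21 to 0.42, with -0.78 without the 3 arrays that stood apart). Scube1, a secreted EGF-domain protein, rose by 6.73 and 6.03 (-0.69, -2.0 to 0.62). Sprr2f, a cornified envelope protein of the estrogen-stimulated epithelium and a member of a family of close copies, rose by 6.29 and 7.34 (1.05, -0.59 to 2.69), and WT E2 arrays of this gene spread from 1.55 to 4.34. The highest was WT E2 replicate 3, and without the 3 arrays that stood apart the Sprr2f interaction was 2.03. For Trim15, an E3 ligase, and Fgf21, an endocrine growth factor, the PLB arrays were not well above background. Trim15 rose at least 185-fold in WT and at least 230-fold in Arg260, and Fgf21 at least 62.1-fold and at least 57.4-fold. Bounds of this kind set the mean of the bright group against the floor of the dim one. Krt87, a hair keratin, rose at least 100-fold in WT. In Arg260 2 of its 4 PLB arrays were well above background, and no fold is given.

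Mylk2, a myosin light chain kinase best known from skeletal muscle, was the strong riser with the smallest unadjusted p. Levels were -4.84, -4.80, -5.54 and -5.19 in WT PLB, -5.17, -5.27, -4.94 and -5.30 in Arg260 PLB, 1.84, 1.54, 1.79 and 1.55 in WT E2, and 2.66, 2.13, 2.32 and 2.40 in Arg260 E2. The genotypes overlapped under PLB. Under E2 all Arg260 arrays were above all WT arrays, as in 2.55% of all genes. The rise was 6.77 in WT and 7.55 in Arg260, an interaction of 0.78 (SE 0.23, unadjusted p = 0.00396, adjusted p = 1), with 1.10 on slide 1 and 0.45 on slide 2.

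Of the largest falls described here that were not given as bounds, all but Msc had an interval that spanned 0. Ndp, which encodes norrin, a secreted ligand of a Wnt receptor, had WT PLB levels of 1.35, 1.13, 1.31 and 1.65 and WT E2 levels of -3.69, -3.48, -3.37 and -3.37. Arg260 PLB levels were 1.34, 1.32, 1.40 and 1.20, and Arg260 E2 levels -3.12, -3.40, -3.65 and -3.94. The genotypes overlapped in both treatments. The fall was 28.6-fold in WT and 28.8-fold in Arg260, an interaction of -0.01 (SE 0.22, 95% interval -0.48 to 0.46). Pik3ip1, an inhibitor of PI3 kinase, fell 34.1-fold and 36.6-fold. Tbx6, a T-box factor, fell 33.7-fold and 31.8-fold. A second, dimmer Tbx6 probe gave smaller E2 effects of -2.22 in WT and -2.01 in Arg260, so that the size of the fall depended on the probe. Mcf2, a guanine nucleotide exchange factor, fell 22.1-fold and 31.9-fold, with Arg260 E2 well above background on 3 arrays. For Ptgdr, the prostaglandin D2 receptor, Hcar1, the lactate receptor, Mc2r, the corticotropin receptor, and Speer4cos, the E2 arrays were not well above background. Their falls were at least 42.0, 13.8, 12.4 and 16.3-fold in WT and at least 21.6, 11.4, 7.56 and 13.2-fold in Arg260.

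Msc, the bHLH repressor musculin, was near the floor after E2. Its probe was well above background on 1 WT E2 and 2 Arg260 E2 arrays, so that its E2 levels rest mostly on signal not well above background. Levels were -0.84, -1.40, -1.29 and -1.87 in WT PLB, -1.72, -1.11, -1.74 and -2.64 in Arg260 PLB, -7.81, -7.43, -5.82 and -7.27 in WT E2, and -4.22, -6.04, -6.08 and -5.38 in Arg260 E2. The E2 arrays of the genotypes overlapped through WT E2 replicate 3. The E2 effect was -5.73 in WT and -3.63 in Arg260, an interaction of 2.10 (SE 0.67, 95% interval 0.66 to 3.54, unadjusted p = 0.00749, adjusted p = 1). After normexp and quantile normalisation the interaction was 0.72.

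**Figure D4:**
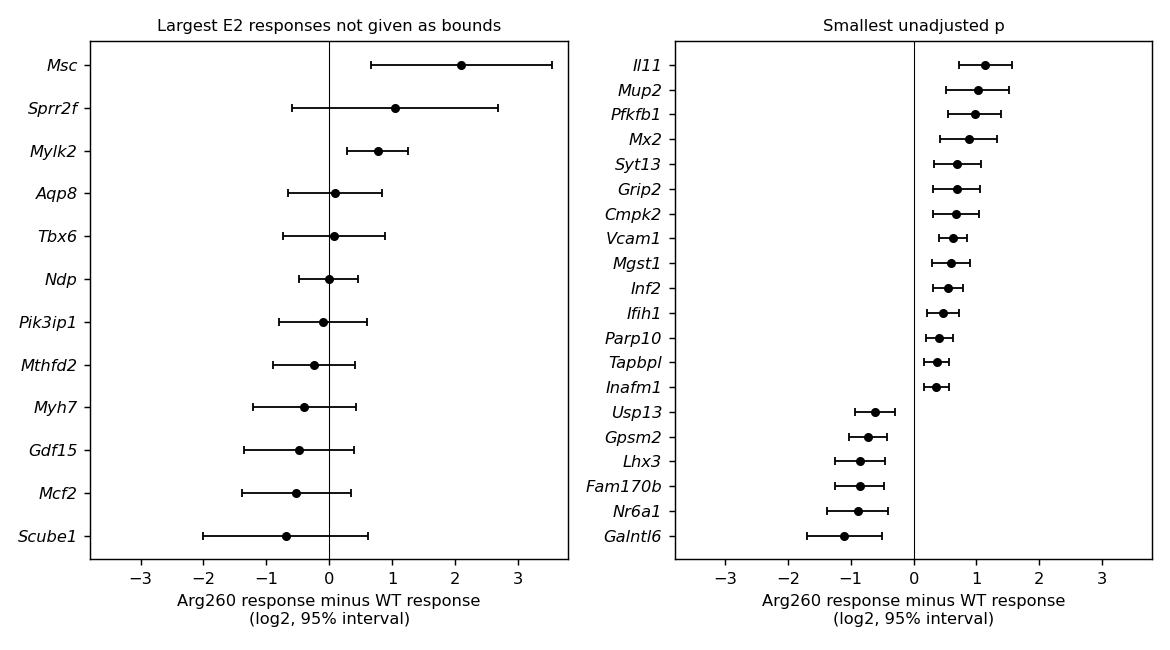
Interaction (Arg260 response minus WT response, log2, dots) with its 95% interval (bars) for 12 of the largest average rises and falls, each well above background on at least 1 array of every group (left) and for the 20 genes with the smallest unadjusted p (right). Of the left set, the intervals of Mylk2 and of Msc (1 of 4 WT E2 arrays well above background) lie above 0 and the other 10 span 0; the right set was chosen for its small p.

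Gene lists were read by the counts of their members. Over all genes tested, E2 raised 31.9% and lowered 31.7% in WT, and raised 33.6% and lowered 30.7% in Arg260. The 46 lists, 27 of pathways and 19 of cell type markers, held 784 distinct tested genes, of which 0 were called in the interaction and 38 (4.85%) had an unadjusted p under 0.05, beside 3.72% of all genes. List medians lay between -0.32 (mitosis) and 1.16 (adipocytes), beside 0.03 for all genes, and 22 of the 46 were within 0.1 of 0.

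Nuclear receptor outputs were read first. Of 34 estrogen-induced genes, E2 raised 30 in WT and 29 in Arg260, beside 31.9% and 33.6% of all genes. Their median interaction was 0.04. Greb1, a coactivator and direct target, rose by 4.50 and 4.30, Ramp3, a subunit of the adrenomedullin receptor, by 5.34 and 5.39, and Igf1, the growth factor that carries the mitogenic signal from stroma to epithelium, by 2.90 and 2.92. Ramp3 levels were 1.42, 0.65, 1.44 and 0.37 in WT PLB, 6.87, 6.08, 6.31 and 5.97 in WT E2, 1.37, 1.13, 1.66 and 1.07 in Arg260 PLB, and 6.77, 6.55, 6.37 and 7.11 in Arg260 E2, and the genotypes overlapped in both treatments. Of 18 estrogen-repressed genes, 15 fell in WT and 12 in Arg260, beside 31.7% and 30.7% of all genes. Their median interaction was 0.11. The 1 estrogen-induced gene with an unadjusted p under 0.05 was Mad2l1, a spindle checkpoint protein, which rose by 5.06 and 5.65 (interaction 0.59, SE 0.22, unadjusted p = 0.0187, adjusted p = 1).

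Genes that build ribosomes and charge tRNAs, the growth programme of the early response, rose in both genotypes. Over all genes, E2 raised 31.9% in WT and 33.6% in Arg260. E2 raised 36 of 37 ribosome biogenesis genes in each, with a median effect of 2.18 in WT and 2.09 in Arg260, and the median interval of a member extended 0.291 to either side of its interaction. Bysl, a factor of the small subunit, rose by 3.44 and 3.36, and Rrp12, which exports pre-ribosomes, by 3.84 and 3.57. Of 19 cytosolic tRNA synthetases, 18 rose in each genotype, with a median interaction of 0.11, and Aars, the alanine enzyme, rose by 4.06 and 4.02. All 23 tested outputs of the stress factor Atf4 rose in both genotypes (median interaction 0.07). Slc7a11, the cystine importer, was the 1 member with an unadjusted p under 0.05, with rises of 3.33 and 2.19 (interaction -1.14, SE 0.49, unadjusted p = 0.0345). Its levels under PLB were -2.21, -3.50, -2.60 and -3.78 in WT, against -2.12, -2.48, -1.75 and -2.24 in Arg260, and under E2 0.86, 0.50, -0.09 and -0.03 in WT, against -0.70, 0.40, 0.26 and 0.20 in Arg260. The genotypes overlapped in both treatments.

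Partners of the membrane receptor had a median interaction of 0.06 over 32 genes, with 1 at an unadjusted p under 0.05, beside 3.72% of all genes. That gene was Nos3, endothelial nitric oxide synthase. Its levels were 2.27, 2.29, 2.11 and 2.20 in WT PLB, 4.49, 4.38, 4.30 and 4.18 in WT E2, 1.97, 2.15, 1.43 and 1.86 in Arg260 PLB, and 4.70, 4.29, 4.50 and 4.50 in Arg260 E2. The genotypes overlapped in both treatments, with Arg260 PLB replicate 3 the lowest array. The rise was 2.12 and 2.65, an interaction of 0.53 (SE 0.19, unadjusted p = 0.0139, adjusted p = 1). Caveolin Cav1 (-0.02), Akt1 (0.07), the receptor's palmitoylating enzymes Zdhhc7 (-0.01) and Zdhhc21 (-0.10), and Prmt1, an arginine methyltransferase (0.04), had interactions near 0, and the membrane estrogen receptor Gper1 fell by 1.96 and 2.35 (-0.39). The interaction of Src was larger and less precise, at 0.51 (SE 0.41, 95% interval -0.37 to 1.40).

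Early-response genes, fast readouts of signalling, rose for the most part in both genotypes. E2 raised 23 of 25 early-response genes in WT and 22 in Arg260, with a median interaction of 0.09 that was -0.16 on slide 1 and 0.42 on slide 2. Of these genes, 3 had an unadjusted p under 0.05, all on the positive side, beside 2.66% of all genes. They were Fosb (0.69, SE 0.24), Maff (0.65, SE 0.29) and Fosl2 (0.39, SE 0.17), subunits of AP-1 or its relatives. Fos itself rose by 3.39 and 4.21 (0.83, SE 0.89), with PLB levels of 0.48, -1.55, -0.67 and 1.22 in WT, against 0.76, -1.79, -1.78 and 0.19 in Arg260. Feedback genes of the MAP kinase pathway moved both ways. E2 raised 10 of 20 and lowered 8 in WT, and raised 11 and lowered 7 in Arg260. The shares over all genes were 31.9% raised and 31.7% lowered in WT, and 33.6% and 30.7% in Arg260. In the interaction, Dusp1 (0.58, SE 0.26) and Spred2 (-0.37, SE 0.12) lay in opposite directions. Spred3 (1.91, SE 0.71) was well above background on 4 arrays only.

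Angiogenic, secretory and proliferation lists gave no call either. Blood vessel growth genes had a median interaction of 0.09 over 26 genes. Pgf, placental growth factor, rose by 5.49 and 5.18, and Vegfa by 3.75 and 3.43, whereas Nrp1, a VEGF coreceptor (0.45, SE 0.21), and Adm, adrenomedullin (0.47, SE 0.18), were on the positive side. Of 19 small proline-rich and secretory epithelium genes, 16 rose in each genotype, beside 31.9% of all genes in WT and 33.6% in Arg260. Their median interaction was 0.35 (0.62 without the 3 arrays that stood apart), with a median interval of 1.11 to either side. Of 38 Wnt axis genes, 3 had an unadjusted p under 0.05, each on the negative side, beside 1.06% of all genes: Wnt5b, a ligand (-0.41, SE 0.13), Lgr5, an R-spondin receptor and stem cell marker (-0.64, SE 0.29), and Tcf7, a transcription factor (-0.29, SE 0.12). Cholesterol synthesis genes rose in 18 of 25 cases in each genotype, beside 31.9% of all genes in WT and 33.6% in Arg260. Their median interaction of 0.09 was 0.49 on slide 1, -0.39 on slide 2 and 0.34 without the 3 arrays that stood apart. Of 35 cytokines and chemokines, E2 raised 17 in WT and 16 in Arg260, beside 31.9% and 33.6% of all genes. Besides Il11, Ccl19, a ligand of the lymphocyte receptor CCR7, had an unadjusted p under 0.05, with rises of 1.26 and 2.21 (0.94, SE 0.25, unadjusted p = 0.00235).

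Mitotic genes had the lowest median of the 46 lists. Over 24 genes of G2/M and mitosis the median interaction was -0.32, and 2 of 24 were above 0. The mean level of the list was -2.51, -2.35, -0.30 and -2.59 on the WT E2 arrays and -2.06, -2.40, -2.12 and -2.06 on the Arg260 E2 arrays. WT E2 replicate 3 was the single high array, and without it the median interaction was 0.25, and 0.41 without the 3 arrays that stood apart.

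Interferon-stimulated genes were, beside adipocyte markers, 1 of 2 lists whose tested members all had an interaction on the same side of 0. These genes are switched on by the factor ISGF3, which contains Stat2 and Irf9, and encode antiviral enzymes, RNA sensors and GTPases. All 29 tested members had an interaction above 0, beside 57.8% of all genes, and 13 of 29 had an unadjusted p under 0.05, all on the positive side, beside 2.66% of all genes, but 0 were called. The median interaction was 0.58, with a median E2 effect of -0.92 in WT and -0.24 in Arg260. E2 lowered 20 of the 29 genes in WT and 14 in Arg260, beside 31.7% and 30.7% of all genes. It raised 2 and 5, beside 31.9% and 33.6%.

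The kind of element that ISGF3 and its relatives bind is shown for 4 of the 13 genes with an unadjusted p under 0.05. These 4 had a match before the start site, as did 11 genes of the whole list. The windows run from 250 bases before to 50 bases after the start (RefSeq, GRCm38.p6). The search was for GAAA, any 2 bases and GAAA again, on both strands. Matches are in capitals, with overlapping matches as 1 run. Rsad2 lies at chr12:26456543-26456592 (minus strand), Stat2 at chr10:128270256-128270305 (plus), Gbp3 at chr3:142559979-142560034 (plus) and Ifit1 at chr19:34640765-34640833 (plus).
Rsad2: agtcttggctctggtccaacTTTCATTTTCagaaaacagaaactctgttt
Stat2: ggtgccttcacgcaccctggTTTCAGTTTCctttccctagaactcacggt
Gbp3: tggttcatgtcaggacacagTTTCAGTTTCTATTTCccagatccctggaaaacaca
Ifit1: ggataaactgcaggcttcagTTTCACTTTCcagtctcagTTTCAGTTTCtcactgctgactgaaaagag
The motif, chosen after the interferon genes were seen, stood in the windows of 13 of the 20 interferon-stimulated genes with a window. It stood in 3.83% of all tested genes with a window, and in 3.44% of all 32851 windows. A match is a description of these letters and not a bound site. Over all genes, those with the motif (524) had a median interaction of 0.07 and those without (13144) one of 0.04. An unadjusted p under 0.05 was seen for 33 of the 524 and for 480 of the 13144. The 13 interferon-stimulated genes are among the 524. The match lies 120 bases before the start of Rsad2 and 222 before that of Stat2.

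The levels of the list differed between the genotypes in the E2 arrays. The mean level of the 29 genes was 0.86, 0.64, 0.95 and 0.79 in WT PLB and 0.78, 0.63, 0.86 and 0.65 in Arg260 PLB. With E2 it was -0.15, -0.15, -0.07 and -0.02 in WT, against 0.17, 0.12, 0.78 and 0.62 in Arg260. All 4 Arg260 E2 arrays were above all 4 WT E2 arrays, with those of slide 2 (replicates 3 and 4) far above those of slide 1. A complete separation in this direction was also seen in 3 of the other 45 lists: ribosome biogenesis, cytosolic tRNA synthetases and endothelial vasoactive genes. For ribosome biogenesis, Arg260 levels were mostly higher under PLB as well, at 1.32 to 1.63 beside 1.26 to 1.33 in WT. The median interaction of the interferon genes was 0.26 on slide 1 and 0.94 on slide 2. It was between 0.45 and 0.69 when single arrays were left out, and 0.70 without the 3 arrays that stood apart.

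Single sensors and effectors of the list are given next. Ifih1, the RNA sensor MDA5, had E2 levels of -0.43, -0.30, -0.45 and -0.36 in WT, against -0.02, -0.22, 0.06 and 0.16 in Arg260, after PLB levels of 0.98, 0.76, 0.90 and 1.05 and of 0.89, 0.82, 0.84 and 0.78. All Arg260 E2 arrays were above all WT E2 arrays, as in 2.55% of all genes, and the PLB arrays overlapped. The E2 effect was -1.31 in WT and -0.84 in Arg260, an interaction of 0.47 (SE 0.12, unadjusted p = 0.00155, adjusted p = 1), and a dimmer probe gave 0.66. Mx2, an antiviral GTPase, had E2 levels of -1.14, -1.64, -1.41 and -1.44 in WT, against -0.64, -1.10, -0.39 and -0.49 in Arg260, again without overlap (0.88, SE 0.21, unadjusted p = 0.000988). Rsad2, the radical SAM enzyme viperin, had E2 effects of -2.55 and -1.63 (0.92, SE 0.25, unadjusted p = 0.00232), and its E2 arrays overlapped.

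Factors that drive the list were members of it too. Stat2 had an E2 effect of -0.31 in WT and 0.15 in Arg260 (interaction 0.47, SE 0.15, unadjusted p = 0.00673), and Irf9 one of 0.03 and 0.37 (0.34, SE 0.13, unadjusted p = 0.0237). Irf7, which amplifies interferon production, had E2 effects of -1.11 and -0.18 (0.93, SE 0.34, unadjusted p = 0.0156). Irf7 levels under E2 were -2.85, -2.56, -2.81 and -2.47 in WT, against -2.83, -2.51, -1.41 and -1.79 in Arg260, and 2 Arg260 arrays, those of slide 2, were above all other E2 arrays. In Isg15, a ubiquitin-like modifier, the same split was seen, with 1.88, 2.16, 2.15 and 2.38 in WT E2 and 2.15, 2.18, 3.46 and 3.39 in Arg260 E2 (0.73, SE 0.38, unadjusted p = 0.0740).

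In 9 of the 29 genes every Arg260 E2 array was above every WT E2 array, beside 2.55% of all genes: Mx2, Oas3, Stat2, Ddx58, Ifih1, Gbp2, Gbp3, Zbp1 and Ly6a (Stat2 by less than the printed decimals). Oas3 was well above background on 0 WT E2 and 2 Arg260 E2 arrays, so that its separation rests on signal near the floor. Under PLB, every Arg260 array was above every WT array in 0 of the 29 genes and below in 1, Irf7. Outside the list, Cmpk2, Parp10, Tapbpl and Vcam1, of the 20 genes with the smallest p, are known to respond to interferon as well. Cmpk2, the neighbour of Rsad2 and a mitochondrial nucleotide kinase, had an interaction of 0.67 (SE 0.17, with 0.33 from a dimmer probe). Parp10, an ADP-ribosyltransferase, had 0.41 (SE 0.10, with 0.18 from a dimmer probe), and Tapbpl, which edits peptides on MHC class I, 0.37 (SE 0.09). The E2 effect in WT was -2.31 for Cmpk2, -0.22 for Parp10, 0.01 for Tapbpl and -0.07 for Vcam1, beside the list median of -0.92. These 4 genes were assigned to this theme after their values were seen. The share of interferon-responsive genes among all genes was not counted, so their number cannot be judged.

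**Figure D5:**
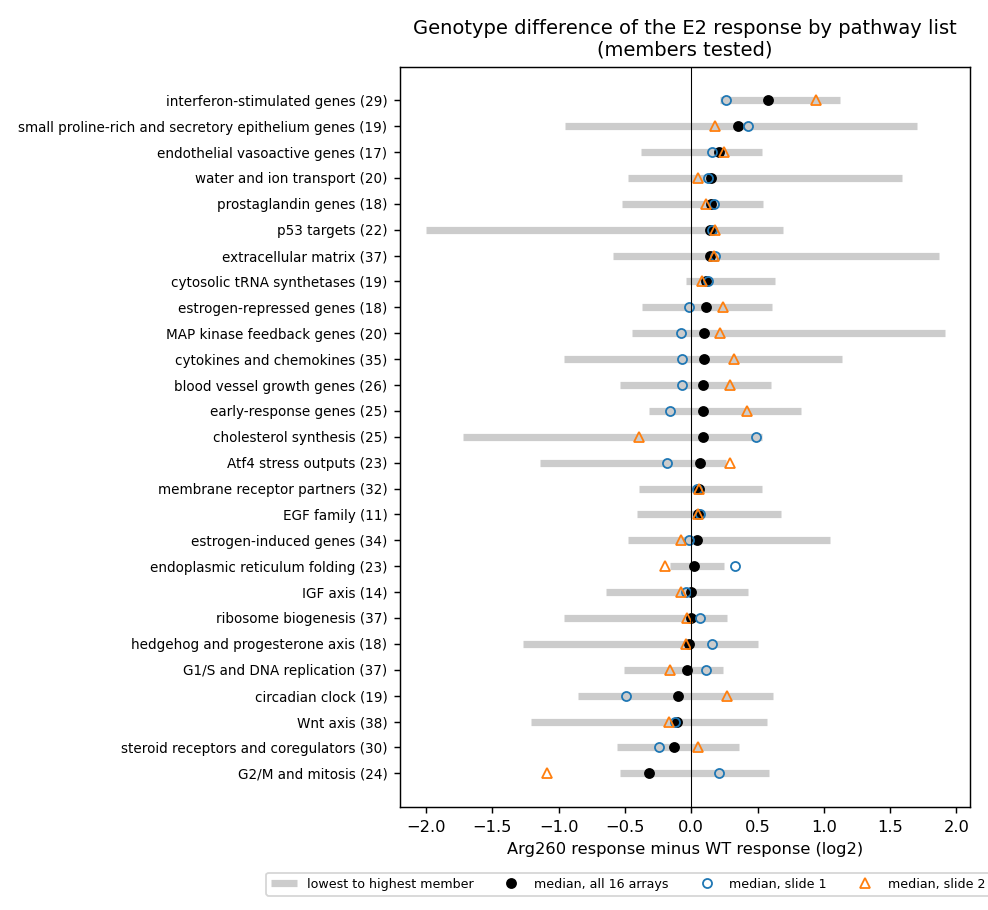
Genotype difference of the E2 response (log2) for the 27 pathway lists, with the number of members tested in brackets: black dots are list medians over all 16 arrays, open circles and triangles the medians of slides 1 and 2, and grey bars run from the lowest to the highest member. The interferon-stimulated genes have the highest median (0.58), with 0.26 and 0.94 on the slides, and the mitotic genes the lowest (-0.32).

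In whole tissue, fewer cells of a type and less RNA per cell cannot be told apart, and marker lists are therefore given beside the results. Adipocyte markers, which can come from fat attached to the uterus, had the highest median interaction, 1.16, with 15 of 15 tested members above 0, 1 of them (Pparg) at an unadjusted p under 0.05. It was 0.77 on slide 1 and 1.55 on slide 2, and 1.78 without WT PLB replicate 4. Their mean level was 0.59, 0.92, 0.74 and -0.55 in WT PLB, -3.46, -1.33, -1.55 and -2.18 in WT E2, -0.83, 0.29, -0.73 and -0.21 in Arg260 PLB, and -2.16, -2.49, -0.59 and -1.12 in Arg260 E2. Adipoq, their defining hormone, ranged between 1.09 and 3.03 in WT PLB, -5.91 and 0.18 in WT E2, 0.88 and 2.32 in Arg260 PLB, and -2.19 and 1.57 in Arg260 E2. Of the 15 markers, 13 were well above background on all 16 arrays. The 2 Arg260 E2 arrays with the higher interferon gene levels also had the higher adipocyte, macrophage, endothelium, lymphatic endothelium, natural killer cell, mast cell and nerve levels. For macrophages these were 0.34 and 0.12, beside 0.02 and -0.21 on the other Arg260 E2 arrays, and for endothelium 1.86 and 1.78, beside 1.67 and 1.68. The same 2 arrays had the lower levels of uterine epithelium (2.09 and 2.22, beside 2.48 and 2.33) and mesothelium (0.08 and 0.29, beside 0.82 and 0.66). The remaining marker lists were mixed. The part of these cell types in the interferon genes and in the single genes above was not tested.

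Markers of the uterine layers moved less. The median interaction was 0.13 over 15 uterine epithelium markers, -0.04 over 11 stroma markers, -0.15 over 11 smooth muscle markers and 0.17 over 13 endothelium markers. In E2, endothelial levels lay between 1.62 and 1.72 in WT and between 1.67 and 1.86 in Arg260. Among leukocyte lists the median interaction was -0.23 for macrophages (0.22 without the 3 arrays that stood apart), 0.05 for T cells, -0.21 for B cells (0.23 without Arg260 PLB replicate 3), 0.16 for natural killer cells and 0.18 for neutrophils. Macrophage levels in E2 lay between -0.36 and -0.11 in WT and between -0.21 and 0.34 in Arg260, and Arg260 PLB replicate 3 was at 1.42. The part of leukocytes in the results was not tested. All 15 epithelial, 11 stromal and 11 smooth muscle markers were well above background on all 16 arrays, so that the labelled tissue's defining cells were present.

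Within each treatment, the genotypes were also compared directly. Under PLB, 0 genes were called and 638 (2.47%) had an unadjusted p under 0.05 by limma. Under E2, 0 genes were called and 1900 (7.35%) had an unadjusted p under 0.05. The E2 contrast shares its arrays with the interaction and is no separate support for it. Gpsm2 (-0.76, adjusted p = 0.0724) and Il11 (0.98, adjusted p = 0.0768) were closest to the threshold under E2, and they passed it under several alternatives: after normexp and quantile normalisation Gpsm2 had -0.71 (adjusted p = 0.00980), Il11 0.91 (0.00513) and Fam170b -0.68 (0.0384).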

How the data were processed

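Each of the 16 samples was hybridised to 1 one-colour Agilent array. The deposited scanner intensities (processed signals) come, per the file headers, from Feature Extraction version 10.10.1.1 and are background-subtracted. The authors' deposited series table holds log2 values of the same arrays, whose scaling is not given in the sources used here. It has 37585 probes and column medians of 8.69. It correlated at 0.998 to 0.999 (Spearman) with the scanner's mean signals, which are not the processed signals used here. It served as an alternative.

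Control spots and outlier spots were left out and spots of a probe averaged. Levels were log2 signals minus the array's 75th percentile. Probes well above background on at least 4 of 16 arrays were kept (38683), and the brightest probe stood for a gene (25862 genes). For 137 genes a missing value dropped an array from the fit. One model of 4 group means was fitted by limma (3.58.1, run in R 4.3.3) to all 16 arrays, and p-values were adjusted by Benjamini-Hochberg over all genes. Genes whose 2 groups differ by a bound use, for the dim group, the lowest signal well above background. Names came from RefSeq by accession (27235 probes), symbol (3581) or synonym (565), otherwise from the files (24300). RefSeq promoter windows (GRCm38.p6) were found for 13668 tested genes.

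Named genes are Esr1 and Pgr, the 20 with the smallest p for the interaction, and the 10 largest average rises and falls. A result that this rule or a list would name is not reported here where its gene is withheld. The list members named were chosen by size, by p or as known examples. The comparison, the lists and the named rules were chosen with earlier results of these data known. The model was also run on simulated arrays with independent noise for each gene. These hold none of the shifts shared by many genes of an array that are described above, so they cannot show how the model handles them. The alternatives were other normalisations, filters, probe rules, priors, array weights, slide and replicate blocks, single slides and leaving out each array.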

Additional observations from a re-analysis of the deposited data

Results flagged for a closer look

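Among 168 groups of 4 arrays of the named genes, 7 had an array whose gap to the nearest of the other 3 exceeded the Dixon limit for 4 values, a limit that chance passes in about 1 group of 20. Esr1 was at 3.57 on Arg260 PLB replicate 3, where the others lay between 3.83 and 3.88, and its interaction was -0.31 with that array and -0.38 without it. Vcam1 was at -0.34 on Arg260 E2 replicate 1 (others -0.09 to -0.06), with an interaction of 0.69 without it. Pfkfb1 was at -2.40 on WT E2 replicate 3 (others -3.06 to -2.98) and at -2.15 on Arg260 E2 replicate 4 (others -2.33 to -2.30), with interactions of 1.13 and 0.93 without them. Usp13 was at -1.18 on WT PLB replicate 3 (others -0.97 to -0.94), with an interaction of -0.56 without it. Trim15 was at -7.38 on Arg260 PLB replicate 2 (others -8.11 to -8.03), not well above background there. Hcar1 was at -3.19 on Arg260 PLB replicate 4 (others -2.70 to -2.62), with an interaction of 0.27 without it. No gene in this paragraph changed the sign of its interaction when that array was left out.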

How the results depend on the processing

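The genotype difference of the E2 response gave 0 called genes in all 32 alternatives run, with smallest adjusted p-values (limma) between 0.0646, for Pfkfb1 without WT E2 replicate 3, and 1. With the replicate block it gave 0 calls and a slope of 0.998. Replicate numbers did not pair the samples: same-number arrays of different groups had deviations that correlated at -0.11 to 0.26 (median 0.03), 3 of 24 pairs were over 0.1, and 5 of 16 arrays correlated best with their own number. The slope of the Arg260 on the WT effects passed to the other side of 1 within slide 1 (1.03) and as a median ratio (1.01), and ranged from 0.982 to 1.02 when single arrays were left out, with permutation p-values of 0.463 to 0.991 over the alternatives. The count of genes called, arg260_minus_wt_e2, was 0 above, 1 after quantile normalisation, 3 after normexp and quantile normalisation, 2 in the series table, 2 for probes well above background on all 16 arrays, 2 with a trended robust prior, 1 with array weights, and 0 to 2 when single arrays were left out. The median half-width of the interval (precision of the interaction) was 0.691 within slide 2. For the interaction within each slide, the correlation of the slides was 0.12 with 3 arrays left out. The genes at unadjusted p under 0.05 numbered 1450 with array weights. All 4 groups have 4 arrays, and this number limits the precision. Where a probe was not well above background in a treatment, its interaction rests on signal near the floor.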
